A study of Mus musculus with 54 samples.

Results

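Cohesin is a ring-shaped protein complex that holds sister chromatids together and shapes chromatin loops. Its ring is closed by a pair of SMC (structural maintenance of chromosomes) proteins and a kleisin, and an SA (STAG) subunit binds the kleisin. In meiosis, dedicated paralogs take the place of most mitotic subunits, and they build the chromosome axes on which homologs pair and recombine.

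The 9 genes described here encode the mitotic subunits Smc1a, Smc3, Rad21, Stag1 and Stag2 and the 4 meiosis-specific subunits Smc1b, Rad21l, Rec8 and Stag3, of which SMC3 is shared by mitotic and meiotic rings. They were taken by symbol from a list of known cohesin subunits, and all 9 were found among the 23284 symbols of both count tables. The mice were C57BL/6 males aged 3 months, and they carried varied doses of Ctcf, the insulator protein that stops cohesin on chromatin, and of its germline paralog Boris (Ctcfl). The 4 genotypes were wild type (WT), Ctcf +/- (CTCF HET), Boris -/- (BORIS KO) and the compound mutant Ctcf +/- Boris -/- (CM), which the labels call DKO although 1 Ctcf allele remains. Germ cell preparations of whole testis, each pooled from 4 mice, gave 3 RNA libraries per genotype. Round spermatids (haploid cells after meiosis) and spermatocytes (cells in meiosis) were isolated by elutriation and sorting, with a stated purity of 93.7% ± 2.3 and 81.5% ± 3.7, and gave 3 libraries per genotype except WT spermatocytes, which had 2. Lists of peaks from chromatin immunoprecipitation were given for WT and CM germ cells, 1 list per antibody and genotype. Levels are in CPM, counts scaled to a common library total after TMM normalisation, and a gene was called where its Benjamini-Hochberg adjusted p from edgeR's quasi-likelihood test was under 0.05.

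The whole testis libraries had total counts of 10437683 to 42055813 and the purified cell libraries of 47740650 to 98545423. Ctcf was at 22.3 to 30.2 CPM in CTCF HET and 24 to 27.4 CPM in CM whole testis against 39.9 to 47.0 CPM in WT, so the groups did not overlap. In purified cells Ctcf went against several labels: it stood at 32.3 to 52.4 CPM in spermatocytes labelled CTCF HET against 33.3 and 35.2 CPM in WT, and at 172 CPM in replicate 1 of the round spermatids labelled CM and 85.9 CPM in replicate 1 of the spermatocytes labelled CM. Ctcfl was at 1.97 to 2.39 CPM in BORIS KO round spermatids against 2.84 to 5.12 CPM in WT (log2 fold change -0.78, SE 0.25, edgeR adjusted p = 0.0248). In spermatocytes it had 6 and 5 counts in WT and 1, 8 and 0 counts in the libraries labelled BORIS KO, too few to check that label, and 94 counts in replicate 2 of those labelled CTCF HET. The CTCF HET spermatocyte libraries had counts for 12018 to 13406 genes against 17631 and 17683 in WT. In round spermatids labelled CM, replicate 2 stood apart, with the early meiotic genes Stra8 at 202 CPM and Dmc1 at 42.3 CPM against at most 10.4 and 3.15 CPM in WT. Summed markers did not follow these genes. Its spermatocyte markers summed to 3527 CPM against 4052 and 4663 CPM in replicates 1 and 3, and its spermatogonia markers to 988 CPM against 1185 and 883 CPM. The round spermatid marker Prm1 was at 139 CPM there against 45.6 and 33.9 CPM. The summed level of 10 spermatocyte markers was 7404 to 8366 CPM in WT spermatocytes and 4019 to 4096 CPM in WT round spermatids, and that of 10 round spermatid markers was 369 to 404 CPM and 1791 to 2011 CPM.

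The loci are spread over 7 chromosomes, and positions are on mm9 (NCBIM37). Of the SMC genes, Smc1a lies at chrX:148450971-148497237, Smc1b at chr15:84895121-84962387 on the minus strand and Smc3 at chr19:53674886-53720323. Of the kleisin genes, Rad21 lies at chr15:51794151-51823306 and Rad21l at chr2:151471140-151494269, both on the minus strand, and Rec8 at chr14:56236874-56244232. Of the SA genes, Stag1 lies at chr9:100498217-100858964, Stag2 at chrX:39502494-39630362 and Stag3 at chr5:138721468-138753621.

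Listed CTCF peaks lay within 2 kb of a start of 3 of the 9 genes in WT (Smc3, Stag1 and Stag2), a class that holds 32.4% of the 20098 protein-coding genes, and the CM list had peaks at the same 3 starts (14.0% of all genes). BORIS peaks lay at 5 starts, those of Smc1b, Smc3, Rec8, Stag1 and Stag2, against 16.1% of all genes. The Smc1b and Rec8 starts, both of meiosis-specific genes, had a BORIS peak without a listed CTCF peak. RNA polymerase II (Pol2) was listed at 8 starts in WT and in CM, against 41.9% and 49.3% of all genes, and Rad21l was the start without a peak. The active promoter mark H3K4me3 was listed within 2 kb of all 9 starts in both genotypes, against 55.5% of genes in WT and 59.5% in CM. At Rad21l its peak centre lay at -1885 bp from the start in WT, and with a window of 1 kb this gene had none.

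The BORIS peak at Smc1b had a height of 61, at percentile 31.4 of its list, and that at Rec8 a height of 281, at percentile 89.5. The Stag1 peaks sat at a cluster of starts 45650 bp downstream of the first annotated start, which itself had no listed peak. Further CTCF peaks lay in a coding exon of Smc1b, in an intron of Stag3, downstream of Smc3 and in an intron of Ipo4 downstream of Rec8. All 7 WT CTCF peaks within 5 kb of the loci overlapped a CM peak, each by at least 95.3% of the shorter peak. The WT list holds 34625 peaks and the CM list 21525, and the share of all WT peaks kept was not counted. Percentiles within the WT and CM lists were 96.2 and 57.4 at Stag2 and 88.3 and 41 at Stag1. They were 64.2 and 51.1 at the Smc3 start, 77.9 and 42.6 downstream of Rec8, and 47 and 25.2 at Stag3. Smc1b had 16.6 and 15.1, and the peak downstream of Smc3 had 39.1 and 66.4. An overlap alone does not show that occupancy was kept. Heights were not compared between lists, since each was called and scaled by itself and has no replicate error.

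**Figure D1:**
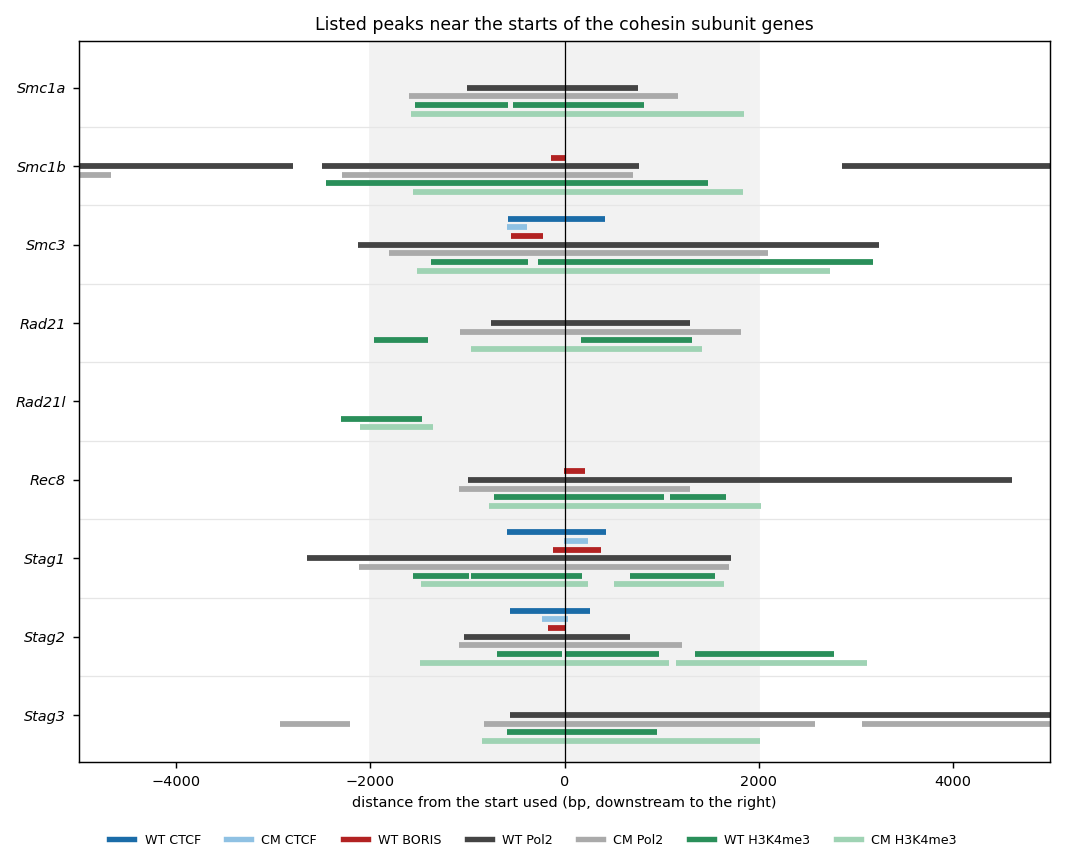
Listed ChIP-seq peaks around the starts of the 9 cohesin genes; the horizontal axis is the distance from the start in bp, bars are peaks coloured by antibody and genotype, and the grey band is 2 kb either side. The start drawn is the first annotated one, except for Stag1, where it lies 45650 bp downstream. BORIS bars stand at Smc1b, Smc3, Rec8, Stag1 and Stag2, and CTCF bars at Smc3, Stag1 and Stag2.

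To show what sequence underlies the peaks, a 20-base CTCF matrix was built from the WT CTCF peaks themselves, with the consensus NNNNNNGCCCNCTNNTGGNN read on both strands. A match at the threshold of 7.48 (log2 odds) was found within 50 bp of the summit in 72.1% of WT CTCF peaks and 71% of BORIS peaks, and in 5% of windows 1000 bp away. At the cohesin genes the best site was sought over the whole peak, which is longer than these windows. The rates above therefore do not apply to the sites shown, and the centre of the Smc1b exon site lay at -61 bp from its summit. The BORIS peak windows at Smc1b, Smc3 and Stag2 are given on the strand of the gene, because they contrast a BORIS-only promoter with promoters that also had CTCF. Capitals mark the best-scoring 20 bases: 2.87 at Smc1b (chr15:84962374-84962524, below the threshold), 16.4 at Smc3 (chr19:53674342-53674492) and 14.2 at Stag2 (chrX:39502341-39502491).
Smc1b: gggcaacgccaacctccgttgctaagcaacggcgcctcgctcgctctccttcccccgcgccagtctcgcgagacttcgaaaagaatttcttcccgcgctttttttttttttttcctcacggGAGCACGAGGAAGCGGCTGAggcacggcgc
Smc3: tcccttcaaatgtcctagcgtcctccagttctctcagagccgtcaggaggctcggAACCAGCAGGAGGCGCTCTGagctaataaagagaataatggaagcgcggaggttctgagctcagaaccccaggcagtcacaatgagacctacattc
Stag2: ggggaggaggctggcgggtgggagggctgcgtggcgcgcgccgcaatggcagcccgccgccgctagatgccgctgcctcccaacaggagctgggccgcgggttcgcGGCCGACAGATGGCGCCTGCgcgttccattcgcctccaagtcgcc

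The other sites are shown as the matched 20 bases alone, on the strand that matched the matrix. The whole site is in capitals, and scores were 10.4 at the Rec8 start (chr14:56236965-56236984), 24 at Stag1 (chr9:100543990-100544009) and 22.2 in the Stag3 intron (chr5:138729275-138729294). The site downstream of Rec8 scored 18.4 (chr14:56248341-56248360), the one downstream of Smc3 18.3 (chr19:53723397-53723416) and the one in the Smc1b exon 14.2 (chr15:84901173-84901192).
Rec8 start: CCTGTCGCCCTCCAGCGGGA
Stag1 start: CCGACCGCCCTCTGCTGGCC
Stag3 intron: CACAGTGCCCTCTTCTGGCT
Rec8 downstream: AGGTCTGCCCCCTGCTGGCA
Smc3 downstream: AAGGGCTCCCTCTAGTGGCT
Smc1b exon: TCAAGCTCCCTCTAGTGTCA

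The Rec8 start site thus scored lowest of the sites above the threshold, at a promoter with a BORIS peak and no listed CTCF peak. In the window from 250 bp before to 50 bp after the first start, only Stag2 held a match, against 25% of 20141 promoters. The same windows held 43 CpG at Stag2, 32 at Smc3, 29 at Smc1b and 28 at Rad21, and 2 at Rad21l, against a median of 13 over all promoters. No match says only that these letters did not reach the threshold in this window.

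In WT cells the subunits differed widely between round spermatids and spermatocytes. Of the 9 genes, 7 had higher and 1 had lower mRNA in round spermatids, while 35.8% of all genes tested were higher and 34.2% lower. The median log2 fold change of the 9 was 3.63, against 0.02 over all genes tested. In these bulk libraries fewer cells of a type and less RNA per cell cannot be told apart.

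Among the SMC genes, Smc1b was at 1910.4, 1907 and 1930.2 CPM in WT round spermatids and at 900.5 and 736 CPM in WT spermatocytes. All round spermatid libraries were higher (log2 fold change 1.25, SE 0.11, edgeR adjusted p = 3.5e-05). The shared subunit Smc3 was at 401, 436 and 441 CPM against 38.0 and 32.1 CPM (log2 fold change 3.63, SE 0.13, edgeR adjusted p = 4.3e-07). Its mitotic partner Smc1a was low in both, at 7.62 to 8.70 CPM against 0.132 and 0.210 CPM (log2 fold change 5.56).

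Of the kleisins, which bridge the SMC heads and are cut to release cohesion, Rec8 showed the widest range. It was at 118, 97.4 and 96.4 CPM in WT round spermatids and at 1.08 and 0.979 CPM in WT spermatocytes (log2 fold change 6.68, SE 0.18, edgeR adjusted p = 1.6e-07). Rad21, the mitotic kleisin, changed less, from 57.0 to 60.6 CPM against 27.7 and 28.2 CPM (log2 fold change 1.10, SE 0.11). Rad21l had 0.587 to 1.96 CPM in round spermatids and 5 and 2 counts in the spermatocyte libraries (fitted log2 fold change 4.79, SE 0.77, a value that depends on the prior count).

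The SA subunits went 3 ways. Stag2 was at 89.0, 87.8 and 88.4 CPM in WT round spermatids and at 0.946 and 1.10 CPM in WT spermatocytes (log2 fold change 6.46, SE 0.15, edgeR adjusted p = 1.2e-07). Stag1 was lower in round spermatids, at 34.1 to 38.7 CPM against 62.6 and 65.8 CPM (log2 fold change -0.78, SE 0.11, edgeR adjusted p = 0.00045). Stag3, the SA subunit of meiotic rings, was at 607, 486 and 479 CPM against 514 and 538 CPM, and the groups overlapped (log2 fold change 0.02, SE 0.12, edgeR adjusted p = 0.88). With any 1 library left out, 8 genes were called, as with all libraries. Other markers also moved in this contrast. Of 10 spermatocyte markers tested, 2 were higher and 6 lower in round spermatids (median log2 fold change -0.61). Among them Dmc1 was at 1.73 to 3.15 CPM against 0.119 and 0.197 CPM, and Sycp3 at 92.1 to 120 CPM against 371 and 463 CPM. Of 9 spermatogonia markers tested, 5 were higher and 1 lower in round spermatids (median log2 fold change 1.29). Their summed level was lower there, at 994 to 1305 CPM against 1548 to 1763 CPM. The summed macrophage markers were at 84.3 to 96.6 CPM against 2.61 to 3.04 CPM, with 3 of 6 called higher and 1 lower. Of 4 Sertoli cell markers tested, 3 were lower and none was higher. The part of these markers in the result was not tested.

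**Figure D2:**
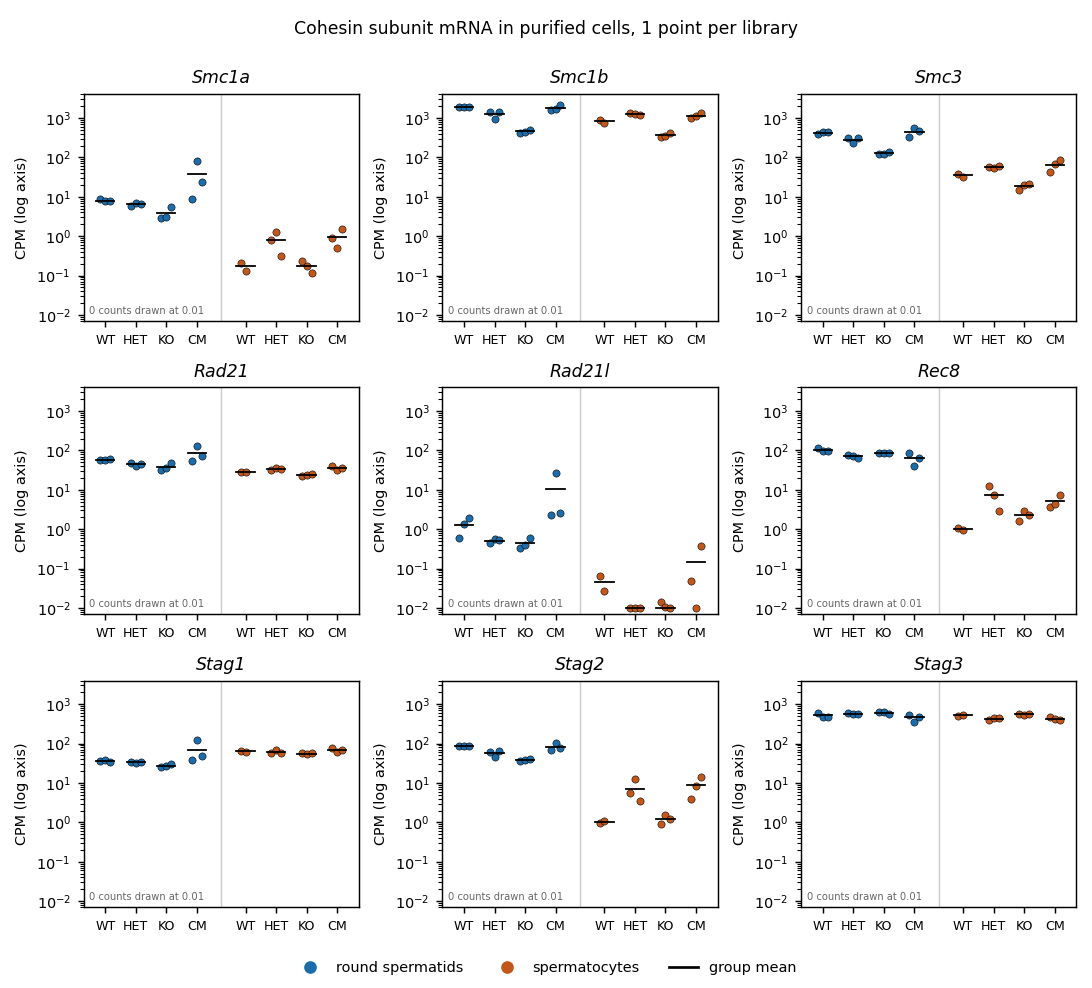
Level of each cohesin gene in purified cells in CPM on a log axis, 1 point per library with the group mean as a bar, by genotype and cell type; libraries with 0 counts are drawn at 0.01. Rec8, Stag2 and Smc1a sit far lower in spermatocytes than in round spermatids, Stag3 runs from 357 to 630.1 CPM over all libraries, and Smc1b and Smc3 are lowest in BORIS KO in both cell types.

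Per exon length (RPKM), Smc1b ranked first in WT round spermatids at 474 ± 3.10 (SD, n = 3), followed by Stag3 at 91.4 ± 12.5, Smc3 at 76.8 ± 3.90, Rec8 at 37.8 ± 4.39, Rad21 at 16.3 ± 0.501 and Stag2 at 10.7 ± 0.0749. Stag1 at 3.57 ± 0.225, Smc1a at 1.39 ± 0.104 and Rad21l at 0.796 ± 0.419 RPKM closed the order, and no neighbours in it overlapped. In WT spermatocytes Smc1b at 203 ± 28.9 RPKM (SD, n = 2) and Stag3 at 91.7 ± 3.02 led again, and Rad21 followed at 7.76 ± 0.103. Smc3 at 6.32 ± 0.745 and Stag1 at 6.26 ± 0.223 RPKM overlapped, as did Smc1a at 0.0297 ± 0.00956 and Rad21l at 0.0279 ± 0.0168. In WT whole testis, a separate protocol with rRNA depletion that was not compared with the cells, Stag3 led at 133 ± 23.9 RPKM (SD, n = 3), before Rec8 at 42.8 ± 2.14 and Smc1b at 30.7 ± 4.23.

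The meiosis-specific share of each subunit family describes which version of the ring the mRNA could supply. Smc1b made up 99.7% ± 0.0227 of SMC1 RPKM in WT round spermatids (SD, n = 3) and Stag3 86.4% ± 1.43 of SA RPKM. The meiotic kleisins Rec8 and Rad21l made up 70.2% ± 2.65 of kleisin RPKM in WT round spermatids and 4.92% ± 0.429 in WT spermatocytes (SD, n = 2), where Rad21 supplied the rest. This kleisin share was above the WT values of 4.62% and 5.22% in every mutant spermatocyte library. It reached 10.6% to 34.2% in the CTCF HET libraries, 8.79% to 14.2% in those labelled BORIS KO and 11.1% to 23.0% in those labelled CM.

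**Figure D3:**
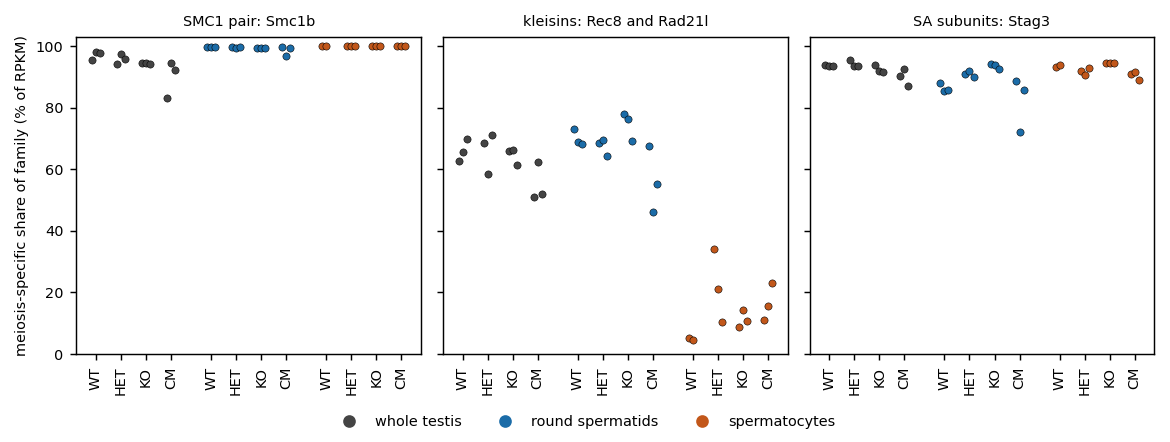
Meiosis-specific share of each cohesin subunit family in percent of summed RPKM, 1 point per library, by preparation and genotype. The SMC1 and SA shares stay high throughout, while the kleisin share is 68.3% to 73.2% in WT round spermatids and at most 34.2% in any spermatocyte library.

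In BORIS KO round spermatids 7 of the 9 were lower than in WT and none were higher, while 29.0% of all genes tested were lower. The median log2 fold change of the 9 was -1.05, against -0.01 over all genes. Smc1b fell to 428, 439.9 and 508 CPM from 1907 to 1930.2 CPM in WT (log2 fold change -2.03, SE 0.076, edgeR adjusted p = 2.8e-06). Smc3 was at 123, 119 and 139 CPM against 401 to 441 CPM (log2 fold change -1.71, SE 0.088, edgeR adjusted p = 3.6e-06). Stag2 was at 35.4, 38.2 and 39.8 CPM against 87.8 to 89.0 CPM (log2 fold change -1.19, SE 0.089, edgeR adjusted p = 1.4e-05). None of these 3 genes overlapped with WT in any library.

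The other called genes fell less or were scarcer. Smc1a was at 2.95, 3.03 and 5.44 CPM against 7.62 to 8.70 CPM (log2 fold change -1.05, SE 0.23, edgeR adjusted p = 0.0043), and Rad21 at 32.9, 35.2 and 49.5 CPM against 57.0 to 60.6 CPM (log2 fold change -0.55, SE 0.14, edgeR adjusted p = 0.0086). Stag1 fell by 0.37 on the log2 scale and Rad21l by 1.5, and these calls were the least secure. The Stag1 adjusted p was 0.0602 without WT replicate 2, 0.0817 without BORIS KO replicate 1 and 0.0783 without BORIS KO replicate 2. That of Rad21l was 0.0591 and 0.0921 without WT replicates 2 and 3, and 0.0744 and 0.0701 without BORIS KO replicates 1 and 2. With all purified cell groups, of both cell types, in one fit, 3 genes were called: Smc1b, Smc3 and Stag2. Of the 5 genes with a BORIS peak at the start in WT, the log2 fold changes were -2.03 (Smc1b), -1.71 (Smc3), -1.19 (Stag2), -0.37 (Stag1, with the tallest of the 5 peaks) and -0.23 (Rec8, not called), and of the 4 without one -1.05 (Smc1a), -0.55 (Rad21), -1.5 (Rad21l) and 0.25 (Stag3, not called). The relation between peaks and changes was not tested.

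Rec8 was at 87.9, 85.9 and 84.0 CPM in BORIS KO round spermatids against 96.4 to 118 CPM in WT, below it in each library without being called (log2 fold change -0.23, SE 0.10, edgeR adjusted p = 0.084). Stag3 was at 621, 630.1 and 562 CPM against 479 to 607 CPM (log2 fold change 0.25, SE 0.11, edgeR adjusted p = 0.083), and it was called higher without WT replicate 1 (log2 fold change 0.36, adjusted p = 0.00083). Of 10 spermatocyte markers 8 also fell in these libraries, from a summed 4019 to 4096 CPM in WT to 2536 to 2700.2 CPM, and none of the 10 was at 0. Their part in the cohesin result was not tested.

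In BORIS KO spermatocytes 4 of the 8 genes tested were lower, against 28.1% of all genes, and 1 was higher, against 29.1%. Smc1b was at 335, 357 and 405 CPM against 900.5 and 736 CPM (log2 fold change -1.17, SE 0.10, edgeR adjusted p = 8.7e-06). Smc3 was at 15.1, 20.5 and 21.3 CPM against 38.0 and 32.1 CPM (log2 fold change -0.89, SE 0.14, edgeR adjusted p = 0.0012). Both genes were lower in every BORIS KO library, as in round spermatids. Rad21 (log2 fold change -0.26, SE 0.072, edgeR adjusted p = 0.0078) and Stag1 (-0.20, SE 0.066, adjusted p = 0.0195) were slightly lower. Rec8 rose, from 1.08 and 0.979 CPM to 1.60, 2.94 and 2.31 CPM (log2 fold change 1.15, SE 0.24, edgeR adjusted p = 0.0019).

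Stag3 at 559.7, 539 and 577 CPM against 514 and 538 CPM was not called (log2 fold change 0.08, SE 0.063, edgeR adjusted p = 0.30), nor was Stag2 at 0.902 to 1.53 CPM against 0.946 and 1.10 CPM (log2 fold change 0.25, SE 0.23, adjusted p = 0.38). Without BORIS KO replicate 1, Stag2 was called higher (0.43, adjusted p = 0.041). Smc1a had 17, 16 and 8 counts against 16 and 10 in WT (log2 fold change 0.03, SE 0.44, adjusted p = 0.97). Rad21l had too few counts to be tested in spermatocytes. In BORIS KO replicate 3 it had 0 counts, which allows up to 0.0439 CPM. The adjusted p of Stag1 was 0.127 without WT replicate 1 and 0.119 without BORIS KO replicate 2, and that of Rad21 was 0.0551 without WT replicate 1. With all purified cell groups, of both cell types, in one fit, 2 genes were called. Spermatocyte markers fell here as well, 6 of 10, from a summed 7404 to 8366 CPM to 5264 to 5742 CPM, with none at 0, and their part in the result was not tested.

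**Figure D4:**
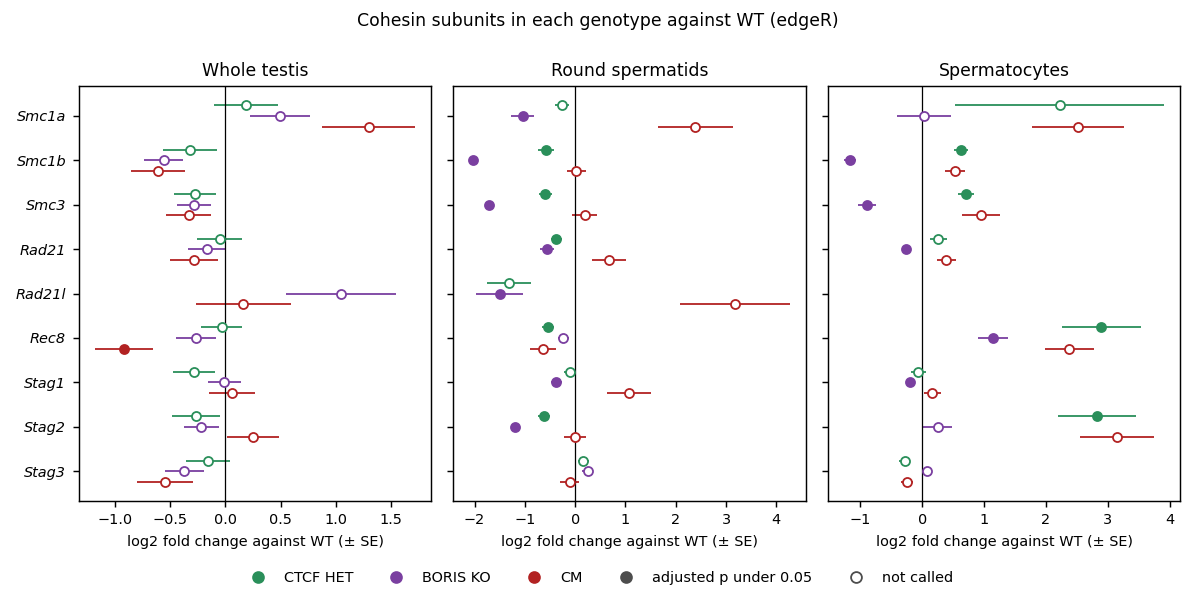
Log2 fold change against WT with its SE for each cohesin gene, in whole testis, round spermatids and spermatocytes, by genotype; filled points have an edgeR adjusted p under 0.05 and genes not tested have no point. BORIS KO points for Smc1b and Smc3 are filled and below 0 in both cell types, and CTCF HET points for Smc1b, Smc3, Rec8 and Stag2 are filled below 0 in round spermatids and above 0 in spermatocytes.

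The proteins that load, release and protect cohesin were described alongside. Their list also holds Ctcf, the gene whose dose was varied, which enters the counts and medians below. Of 17 such regulators, 11 were lower and 4 higher in BORIS KO round spermatids (median log2 fold change -0.62), against 29.0% and 26.8% of all genes, and of 16 tested 9 were lower and 2 higher in BORIS KO spermatocytes (median -0.38), against 28.1% and 29.1%. Nipbl, the cohesin loader, fell by 1.22 on the log2 scale in round spermatids and by 1.01 in spermatocytes. Pds5b, which binds the ring with WAPL, fell by 1.17 and 0.70, Sgol2, the shugoshin that shields meiotic cohesin from separase, by 1.10 and 0.99, and the acetyltransferase Esco1 by 1.01 and 0.83. The higher ones, named after their values were seen, were the loader partner Mau2 (log2 fold change 1.5 in round spermatids and 0.56 in spermatocytes) and Espl1 (separase, 1.56 and 0.52) in both cell types, and Cdca5 (sororin, 0.52) and Pttg1 (securin, 0.47) in round spermatids. In WT, 10 of the 17 were lower and 4 higher in round spermatids than in spermatocytes, against 34.2% and 35.8% of all genes, with Pttg1 (securin) at a log2 fold change of -1.70, Sgol2 at -1.78 and Plk1, a kinase of cohesin removal, at 1.61. Of 16 tested in CTCF HET spermatocytes, 2 were higher (Pds5b 0.52, Sgol2 0.37) and 2 lower (Espl1 -0.78, Pttg1 -0.55), against 6.77% and 8.76% of all genes. In CM spermatocytes 1 of 17 was higher, Esco2 (1.47), against 0.380%, and none was lower. In CM whole testis 3 of 17 were lower, Ctcf (-0.74), Plk1 (-0.89) and 4930404A10Rik (Meikin, -1.09), against 8.80%, and none was higher.

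In round spermatids of CTCF HET, 5 of the 9 genes were lower than in WT and none were higher, while 12.8% of all genes tested were lower. Smc1b was at 1454, 936 and 1425 CPM against 1907 to 1930.2 CPM (log2 fold change -0.58, SE 0.16, edgeR adjusted p = 0.031). Smc3 was at 306, 225 and 304 CPM against 401 to 441 CPM (log2 fold change -0.60, SE 0.13, edgeR adjusted p = 0.0148). Stag2 was at 60.9, 46.8 and 63.2 CPM against 87.8 to 89.0 CPM (log2 fold change -0.62, SE 0.13, edgeR adjusted p = 0.0124). In each, replicate 2 was the lowest and no library reached WT.

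Rec8 at 78.1, 70.5 and 63.0 CPM (log2 fold change -0.54, SE 0.12, edgeR adjusted p = 0.0168) and Rad21 at 47.2, 40.9 and 46.4 CPM (-0.37, SE 0.10, adjusted p = 0.034) were also called. Rad21l (log2 fold change -1.32, SE 0.44, edgeR adjusted p = 0.057), Smc1a (-0.26, SE 0.15, adjusted p = 0.22), Stag1 (-0.11, SE 0.11, adjusted p = 0.48) and Stag3 (0.16, SE 0.11, adjusted p = 0.32) were not. These calls were fragile: none of the 9 genes was called without WT replicate 2 or without WT replicate 3, 2 without CTCF HET replicate 1, 3 without replicate 2 or replicate 3 of CTCF HET, 7 without WT replicate 1, and none with all groups in one fit. Of 17 regulators, 3 were higher and 1 lower, against 9.51% and 12.8% of all genes. The higher ones were Mau2 (log2 fold change 0.98), Espl1 (separase, 1.08) and Pttg1 (0.62), and Esco2 was the lower one (-1.11). Of 10 spermatocyte markers 3 fell, and of 10 round spermatid markers 6 fell, the latter from a summed 1791 to 2011 CPM to 1474 to 1524 CPM; their part in the result was not tested.

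In spermatocytes labelled CTCF HET the direction was the opposite. There 4 of the 8 genes tested were higher than in WT, against 6.77% of all genes, and none were lower. Rec8 was at 12.5, 7.35 and 2.99 CPM against 1.08 and 0.979 CPM (log2 fold change 2.90, SE 0.64, edgeR adjusted p = 0.0255), and Stag2 at 5.44, 12.5 and 3.51 CPM against 0.946 and 1.10 CPM (2.82, SE 0.63, adjusted p = 0.0258). Both were higher in every library but spread widely among the 3. Smc1b was at 1322, 1272 and 1166 CPM against 900.5 and 736 CPM (log2 fold change 0.62, SE 0.12, edgeR adjusted p = 0.0146), and Smc3 at 56.7, 54.8 and 59.6 CPM against 38.0 and 32.1 CPM (0.71, SE 0.13, adjusted p = 0.0128).

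Stag3 at 402, 439 and 454 CPM against 514 and 538 CPM (log2 fold change -0.28, SE 0.088, edgeR adjusted p = 0.073) was below WT in each library without being called. Rad21 (0.26, SE 0.14, adjusted p = 0.27), Stag1 (-0.06, SE 0.12, adjusted p = 0.84) and Smc1a (2.22, SE 1.69, adjusted p = 0.47) were not called. Rad21l had 0 counts in all 3 libraries, which allows up to 0.0548 to 0.0654 CPM. None of these genes was called without CTCF HET replicate 2, 1 without replicate 1, and 2 without WT replicate 2. In the same libraries 4 of 10 round spermatid markers and 3 of 10 spermatocyte markers rose, the former with a summed level of 340.0 to 414 CPM against 369 to 404 CPM in WT and none of the 10 at 0. Their part in the result, and that of the lower number of genes detected, was not tested.

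Round spermatids labelled CM had no cohesin gene called, and the count over all genes tested was 1 (0.00654%), with 3136 at an unadjusted p under 0.05 by edgeR and 1797 called by DESeq2. The libraries disagreed among themselves. Smc1a was at 8.62, 81.4 and 23.6 CPM, Rad21l at 2.24, 27.1 and 2.56 CPM and Stag1 at 39.2, 122 and 49.8 CPM, with log2 fold changes of 2.39, 3.18 and 1.07, each highest in replicate 2, the library with high Stra8 and Dmc1. Smc1b at 1622, 1702 and 2184 CPM straddled WT (log2 fold change 0.03, SE 0.19, edgeR adjusted p = 0.96). Rec8 at 85.0, 39.7 and 65.2 CPM was below WT in each library (log2 fold change -0.64, SE 0.25, edgeR adjusted p = 0.21). Smc3 (0.19), Rad21 (0.67), Stag2 (-0.01) and Stag3 (-0.11) overlapped with WT. Without replicate 1, Smc1a was called higher (log2 fold change 2.89, adjusted p = 0.0435), and without replicate 2 none of the 9 was called. The summed round spermatid markers were at 915 to 1188 CPM in these libraries against 1791 to 2011 CPM in WT, with none at 0, and their part in the result was not tested.

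Spermatocytes labelled CM likewise had no cohesin gene called, against 0.604% of all genes tested (89 genes). Over all genes, 4391 had an unadjusted p under 0.05 by edgeR. DESeq2 called 5 cohesin genes and 3225 genes in all. Stag2 was at 3.87, 8.17 and 14.2 CPM (log2 fold change 3.15, SE 0.60, edgeR adjusted p = 0.059) and Rec8 at 3.76, 4.42 and 7.36 CPM (2.38, SE 0.40, adjusted p = 0.056), each above both WT libraries. Smc1b was at 987, 1115 and 1331 CPM (log2 fold change 0.53, SE 0.16, edgeR adjusted p = 0.099), Smc3 at 42.2, 67.2 and 86.8 CPM (0.95, SE 0.30, adjusted p = 0.106) and Stag3 at 466, 418 and 402 CPM (-0.25, SE 0.095, adjusted p = 0.143). Without CM replicate 1, the library with Ctcf at 85.9 CPM, 5 were called: Smc1b (log2 fold change 0.65), Smc3 (1.20), Rec8 (2.58) and Stag2 (3.52) higher, and Stag3 (-0.30) lower. The share of all genes called in that fit was not counted, so these 5 calls have no background beside them. Smc1a (2.52, SE 0.74, adjusted p = 0.093), Rad21 (0.39) and Stag1 (0.17) were not called in either fit, and Rad21l was not tested. The summed spermatocyte markers were at 8504 to 11073 CPM in the libraries labelled CM against 7404 to 8366 CPM in WT. The 10 round spermatid markers summed to 279 to 318 CPM against 369 to 404 CPM. Per gene they went the other way, with a median log2 fold change of 0.78 against 0.01 over all genes, and none was called. In these libraries 14145 to 16666 genes had a count against 17631 and 17683 in WT. The part of these markers and of the lower number of genes detected in the result was not tested.

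Whether a genotype acted differently in the 2 cell types was tested as an interaction, the log2 effect in round spermatids minus that in spermatocytes. For CM it was -3.08 for Rec8 (SE 0.47, edgeR adjusted p = 0.017) and -3.23 for Stag2 (SE 0.57, adjusted p = 0.0184), 2 of 9 genes against 3.43% of all genes. Neither was called without either WT spermatocyte library or without replicate 2 or 3 of the WT round spermatids, and without CM round spermatid replicate 3 only Rec8 was. For CTCF HET, a comparison added after the values were seen, 6 of 9 were lower against 10.6% of all genes and Stag3 was higher (0.54, SE 0.14, adjusted p = 0.0150) against 23.0%. The median over all genes in that comparison was 0.33. Smc1a and Stag3 were no longer called without WT spermatocyte replicate 2 (adjusted p = 0.0907 and 0.156), nor Rad21 without replicate 1 (0.0571). The difference was -3.33 for both Rec8 (SE 0.60, adjusted p = 0.0031) and Stag2 (SE 0.58, adjusted p = 0.0028), -2.37 for Smc1a, -1.20 for Smc3, -1.09 for Smc1b and -0.53 for Rad21.

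For BORIS KO, also added later, 4 of 9 were lower against 10.4% of all genes. Of these, Smc1b and Smc3 fell in both cell types, and further in round spermatids. Rec8 and Stag2 had negative effects in round spermatids, where Rec8 was not called, and positive ones in spermatocytes, where Stag2 was not called. The differences were -0.93 for Smc1b (SE 0.14, edgeR adjusted p = 0.0041), -0.89 for Smc3 (SE 0.18, adjusted p = 0.0101), -1.46 for Rec8 (SE 0.26, adjusted p = 0.0063) and -1.51 for Stag2 (SE 0.22, adjusted p = 0.0035). Without WT spermatocyte replicate 2 none of the 9 was called, and Smc3 was also lost without WT round spermatid replicate 2 (adjusted p = 0.0509) or 3 (0.0524). Without BORIS KO round spermatid replicate 3, Smc1a (-1.48) and Rad21 (-0.56) were called too, and without WT round spermatid replicate 1, Stag3 (0.33). The 3 comparisons share their WT libraries.

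In whole testis few cohesin genes were called. In CTCF HET none of the 8 genes tested was called, against 1 of all 16097 genes (0.00621%), and at an unadjusted p under 0.05 there were 424 genes by edgeR and 3 calls by DESeq2. The log2 fold changes ran from -0.32 for Smc1b to 0.19 for Smc1a, with Stag1 at -0.28, Smc3 at -0.27, Stag2 at -0.26, Stag3 at -0.16, Rad21 at -0.05 and Rec8 at -0.035. Smc3, at 33.5, 40.7 and 40.5 CPM against 50.4, 48.8 and 40.8 CPM, was the gene whose libraries did not overlap with WT. The margin was narrow (40.7 against 40.8 CPM), and how many of all genes separated in this way was not counted. Rad21l was not tested there. In BORIS KO none of the 9 was called, against 0.0551% of all genes (9 by edgeR, 386 by DESeq2, and 2717 at an unadjusted p under 0.05). Smc1b was at 95.4, 88.2 and 71.1 CPM against 117, 143 and 111 CPM in WT, with no overlap (log2 fold change -0.56, SE 0.18, edgeR adjusted p = 0.22). With the replicate number as a block it was called (-0.55, SE 0.13, adjusted p = 0.039). The other genes overlapped with WT, with log2 fold changes of 1.04 for Rad21l, 0.49 for Smc1a, -0.37 for Stag3, -0.29 for Smc3, -0.27 for Rec8, -0.22 for Stag2, -0.17 for Rad21 and -0.01 for Stag1.

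In CM whole testis, 1 of the 9 genes was lower, against 8.80% of all genes tested, and none was called higher. Rec8 was at 54.2, 84.7 and 51.7 CPM against 117, 124 and 112 CPM in WT (log2 fold change -0.92, SE 0.26, edgeR adjusted p = 0.035), with no overlap. This call was lost without any 1 of the WT replicates 1, 2 and 3 or without CM replicate 3 (adjusted p from 0.0729 to 0.126). Smc1a was at 20.8, 8.50 and 9.41 CPM against 7.73, 3.82 and 3.78 CPM (log2 fold change 1.30, SE 0.42, edgeR adjusted p = 0.052), and it was called without CM replicate 2 (1.58, adjusted p = 0.034). Smc1b at 71.7, 99.9 and 77.1 CPM (-0.61, SE 0.24, adjusted p = 0.092) and Stag3 at 556, 623 and 419 CPM (-0.54, SE 0.25, adjusted p = 0.135) were below WT in every library. Smc3 (-0.33), Rad21 (-0.28), Stag2 (0.25), Rad21l (0.16) and Stag1 (0.06) overlapped with WT and were not called.

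With the replicate block, Smc1a was called higher in CM (1.27, SE 0.27, edgeR adjusted p = 0.0026) and Smc1b lower (-0.62, SE 0.21, adjusted p = 0.029) beside Rec8 (-0.96, SE 0.22, adjusted p = 0.0043). The 8.80% of all genes comes from the fit without the block, and no such share was counted with it. The meiotic kleisin share was 51.1%, 62.3% and 51.9% in CM against 62.7%, 65.6% and 70.0% in WT. In the same libraries 4 of 7 Sertoli cell markers rose (summed 524 to 1091 CPM against 203 to 323 CPM), as did 4 of 6 Leydig cell markers (1742 to 3399.7 CPM against 344 to 582 CPM) and 4 of 6 macrophage markers, whose summed level overlapped (455 to 566 CPM against 456 to 637 CPM). Of 10 spermatogonia markers Kit rose, to 361, 76.9 and 183 CPM from 15.6 to 34.5 CPM, as did Zbtb16 (log2 fold change 2.57), and Dmrtb1 fell (-0.90). Of 10 spermatocyte markers 1 fell, Spo11 (-0.93). Of 10 round spermatid markers 4 fell, from a summed 13660.3 to 21059 CPM to 4343 to 12177 CPM. No marker of these lists was at 0 in either group, and their part in the cohesin result was not tested.

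**Figure D5:**
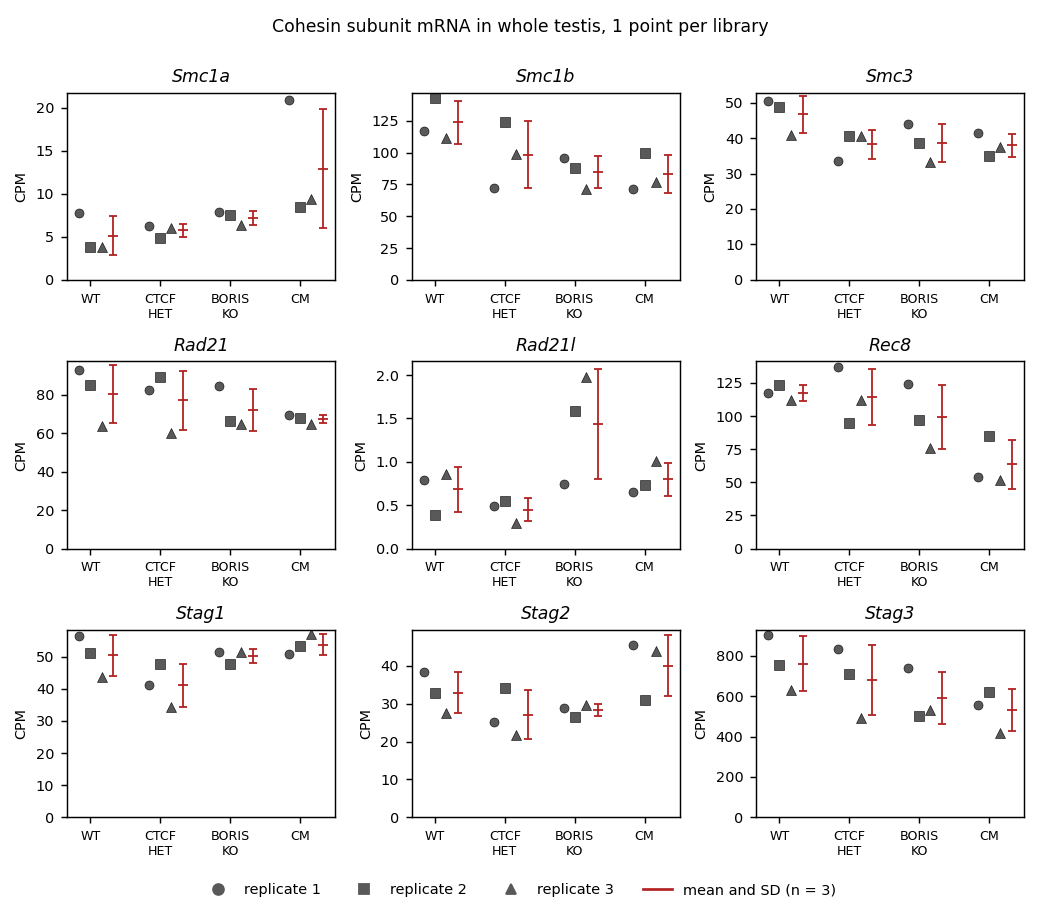
Level of each cohesin gene in whole testis in CPM by genotype, with the replicate number shown by the marker and the mean and SD (n = 3) beside it. Rec8 in CM, at 51.7 to 84.7 CPM, lies below all WT points, and Smc1a in CM, at 8.50 to 20.8 CPM, lies above them.

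Against the single mutants, CM whole testis had no cohesin gene called relative to BORIS KO (0.00600% of all genes, 3594 of them at an unadjusted p under 0.05 by edgeR and 1201 called by DESeq2) or relative to CTCF HET (15.5% of all genes). Relative to CTCF HET, Rec8 (log2 fold change -0.89, SE 0.29, edgeR adjusted p = 0.065) and Smc1a (1.11, SE 0.38, adjusted p = 0.073) came closest, and both were called without CM replicate 2 (-1.10, adjusted p = 0.032, and 1.41, adjusted p = 0.036). With the replicate block both were called, Rec8 lower (-0.92, SE 0.24, adjusted p = 0.0059) and Smc1a higher (1.03, SE 0.28, adjusted p = 0.0065). No difference between the CM effect and the sum of the single effects was called for any of the 9 genes or of the 17185 tested (0%). Of all genes, 1713 had an unadjusted p under 0.05 by edgeR and 29 were called by DESeq2. For Rec8 that difference was -0.61 (SE 0.34) and for Stag2 0.77 (SE 0.30). The lack of a call does not show that the single effects add up.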

How the data were processed

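RNA of whole testis germ cells (rRNA-depleted, Ion Proton, TopHat2 then Bowtie2) and of purified cells (poly(A), HiSeq, STAR) was aligned to mm9 by the authors, who deposited raw read counts per gene in 2 tables. Strand use in counting and the count tool were not given in the sources used here. ChIP reads were aligned with Bowtie2, and the deposited peak lists, 1 per antibody and genotype, hold a peak signal (height or pileup) or a peak score as the authors' callers wrote it.

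Counts were tested with edgeR 4.0.16 (R 4.3.3) in pairwise fits with TMM scaling, filterByExpr (minimum count 10), the robust quasi-likelihood test and Benjamini-Hochberg adjustment over all genes tested. RPKM used the summed exon length of GENCODE M1. Alternatives were DESeq2 1.42.0, RLE scaling, no low-count filter, a replicate block, all groups in one fit, the adjusted p of 0.001 with a fold change of 2 that the study used, and each library left out. The scripts were tested on simulated data. The 9 genes were named with their values in the comparisons against WT (in the other comparisons those closest to or past the threshold), with Ctcf, Ctcfl, up to 4 called regulators per pairwise comparison and the 3 genes closest in pattern to 5 of the 9. Regulators called in the interactions were not named. The members, lists and tests were chosen with earlier results of these data known. Input libraries and CTCF ChIP of purified spermatocytes were not used here.

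Samples sharing a replicate number deviated together in whole testis: all 18 pairs correlated over 0.1 (0.121 to 0.631), so the numbers pair them there, and blocked values are given where they change a call. The whole testis libraries came from separate germ cell preparations. For the purified cells the sources used here do not say that replicates came from separate animals, so their p-values measure the spread between libraries, which may be technical. Heights of peaks have no replicate error, and counts of 0 are given with the limit that 3 counts set, for counting error only.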

Additional observations from a re-analysis of the deposited data

Results flagged for a closer look

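Each value is a difference between the effect of a genotype in round spermatids and its effect in spermatocytes on the log2 scale, singled out because that difference itself passed the edgeR test. For CM these were Rec8 (-3.08) and Stag2 (-3.23). For CTCF HET, a comparison chosen after seeing the data, they were Smc1a (-2.37), Smc1b (-1.09), Smc3 (-1.20), Rad21 (-0.53), Rec8 (-3.33), Stag2 (-3.33) and Stag3 (0.54). For BORIS KO, also chosen after seeing the data, they were Smc1b (-0.93), Smc3 (-0.89), Rec8 (-1.46) and Stag2 (-1.51). Rec8 and Stag2 were near 1 CPM in both WT spermatocyte libraries, so their spermatocyte effects start from a low level.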

How the results depend on the processing

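Counts of called cohesin genes are compared here. Shares over all genes were counted for the reported fits and DESeq2, not for the other alternatives. No effect called in the reported fit or in an alternative changed sign. Of the values per gene, 1667 kept their side of the threshold, 42 gained a call and 118 lost one. At the study's thresholds the count was 0 for CM against WT in whole testis, 0 for CTCF HET in round spermatids and 0 in spermatocytes, 3 for BORIS KO in round spermatids and 1 in spermatocytes, and 0 for each of the 3 interactions. With all groups in one fit it was 2 for CM against WT and 2 for CM against CTCF HET in whole testis. All purified cell groups, of both cell types, shared another such fit. There it was 0 for CTCF HET, 3 for BORIS KO and 2 for CM in round spermatids. It was 2 for CTCF HET, 2 for BORIS KO and 3 for CM in spermatocytes, and 0 for the BORIS KO interaction. DESeq2 gave 2 for CM against WT and 2 for CM against CTCF HET in whole testis, 1 for CM in round spermatids and 5 in spermatocytes. Over all genes it called 5417, 4018, 1797 and 3225 in the same order. Without the low-count filter CTCF HET in spermatocytes had 2.

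Leaving out 1 library at a time gave 0 to 2 for CM against WT and 0 to 2 for CM against CTCF HET in whole testis. In round spermatids it gave 0 to 7 for CTCF HET, 5 to 8 for BORIS KO and 0 to 1 for CM. In spermatocytes it gave 0 to 4 for CTCF HET, 3 to 6 for BORIS KO and 0 to 5 for CM. The interactions had 0 to 2 (CM), 5 to 7 (CTCF HET) and 0 to 6 (BORIS KO). The WT difference between cell types kept 8 throughout. Where 1 WT spermatocyte library remained, it was assumed to vary like the other group.

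The replicate block gave 1 for BORIS KO against WT, 3 for CM against WT and 2 for CM against CTCF HET in whole testis, where the numbers pair the samples. The shares over all genes given for whole testis come from fits without the block. In purified cells same-numbered samples share only a number: 4 of 18 pairs in round spermatids (-0.216 to 0.218) and 1 of 15 in spermatocytes (-0.125 to 0.150) correlated over 0.1, and 5 of 12 and 2 of 11 libraries correlated best with their own number. There the block gave 1 for CM in spermatocytes and left the other counts within 1.5 times. The cause of these shifts was not tested. All peak counts were unchanged or within 1.5 times with windows of 1 and 5 kb, the upper 50% of each list and an overlap of 50% of the shorter peak. With 3 libraries a group, and 2 in WT spermatocytes, the precision is limited by their number more than by depth, except for Rad21l and for Smc1a in spermatocytes, which are near the limit of detection.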

Other observations

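The other SMC complexes, condensin and SMC5/6, were measured beside cohesin. Of their 14 genes, 7 were lower and 2 higher in BORIS KO round spermatids (median log2 fold change -0.32), against 29.0% and 26.8% of all genes, and 10 were lower and 3 higher in BORIS KO spermatocytes (median -0.33), against 28.1% and 29.1%. In WT, 8 were lower and 2 higher in round spermatids than in spermatocytes (median -0.73, against 34.2% and 35.8% of all genes), while the cohesin genes had a median of 3.63.

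Of the 9 cohesin genes, 3 shared a start region with a gene on the opposite strand within 300 bp, against 5.95% of protein-coding genes: Smc1a with Ribc1 at 133 bp, Smc1b with Ribc2 at 142 bp and Stag3 with Gpc2 at 235 bp. Since strand use in counting is not known, reads of such pairs may be shared between them where transcripts overlap, and the low Smc1a values next to Ribc1 are uncertain for that reason. Ribc1 was at 145, 125 and 131 CPM in WT round spermatids and at 1.93 and 1.61 CPM in WT spermatocytes (log2 fold change 6.26), beside 5.56 for Smc1a. Ribc2 had a log2 fold change of 0.97 there and 1.25 was that of Smc1b. In BORIS KO round spermatids Ribc2 changed by -0.36 (edgeR adjusted p = 0.0120) and Smc1b by -2.03. Gpc2 rose in the same libraries by 1.22 (adjusted p = 0.0096), and Stag3 was not called.

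Over the 8 group means of purified cells, the genes most like Smc1b by Pearson's r of log2 CPM were Ugp2 (0.994), Lrriq1 (0.992) and Rpf2 (0.992), of 17314 genes. Those most like Rec8 were Cldn25, Heatr8 and 1700120E14Rik (0.998 to 0.999), those most like Rad21l were Vamp7, Luzp4 and Stxbp5l (0.994 to 0.995), those most like Stag3 were Mrp63, Fes and Eno4 (0.992 to 0.993), and those most like Smc3 were Pitpnb, Dek and Zmynd17 (0.993 to 0.996). The points share libraries and scaling, so these are descriptions.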
